A study of Mus musculus with 20 samples.

Results

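The genes described here are Sparc, Spock2, Smoc1, Fn1, Col1a1, Col3a1, Lum, Dcn, Vim and Thy1, which encode components of the extracellular matrix and proteins by which fibroblasts are recognised. Their members were all probe sets of the deposited array table that were listed with 1 of these symbols and no other. This gave 17 of the 20380 probe sets listed with exactly 1 gene, and 10 of 12393 genes. Vim had 3 probe sets, 5 genes had 2 and 4 genes had 1. RNA came from MIN6, a beta cell line of the mouse that secretes insulin, on 20 Affymetrix arrays. Cultures were kept at 22.7 or 5.5 mM glucose and given 1, 10 or 20 µM human amylin for 2, 12 or 24 h, or left untreated (1 array at each glucose level). Each of the 20 conditions was arrayed once, so all p-values measure the spread between these 20 arrays and not between replicate cultures, and the number of arrays limits the precision. All samples are the same cell line, with no primary islet and no fibroblast culture beside it.

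Fibroblasts and related stromal cells secrete collagens, fibronectin and small leucine-rich proteoglycans, which assemble into the fibrous matrix around epithelial and endocrine cells. Matricellular proteins of the SPARC family bind this matrix and modulate how cells attach to it. Beta cells make little of the fibrillar matrix in the pancreas, so transcripts of these genes are commonly read as a sign of stromal cells in islet samples. In RNA from a whole culture, fewer cells of a type and less RNA per cell cannot be told apart.

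For 2 arrays no scanner description was used here, while the other 18 have one. The first had 1 µM amylin for 12 h at 22.7 mM glucose. The second had 10 µM amylin for 24 h at 5.5 mM glucose. They are called the undescribed arrays, and their values are given in this order. They stood apart from the other 18 as a whole. Their mean correlations with the remaining arrays over all probe sets were 0.972 and 0.962, against 0.986 to 0.990. Their medians over all 22690 probe sets on the array were 7.25 and 7.28 on the log2 scale, against 7.04 to 7.15. Their interquartile ranges were narrower, at 2.20 and 2.13 against 2.42 to 2.68. The difference in signal between the 3′ and 5′ actin probe sets, which grows as RNA degrades, was 1.66 and 1.04 in them and ranged over 0.978 to 2.60 in the others. Ins2 (insulin) read 14.7 in each of the undescribed arrays and 14.5 to 14.8 in the other 18. Iapp, which encodes amylin itself, read 13.6 and 13.9 against 13.4 to 13.9. Pdx1, a beta cell transcription factor, read 10.803 and 10.655 against 10.741 to 11.349. Slc2a2, a further beta cell marker, read 10.31 and 9.82 against 10.06 to 11.03. For Pdx1 and Slc2a2 the second undescribed array thus lay below all of the other 18. Chga, chromogranin A of secretory granules, read lower in the undescribed arrays without overlap, at 13.0 in both against 13.4 to 13.7.

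A background level was set in each array as the 95th percentile of 172 probe sets of 142 genes of other organs, such as olfactory and taste receptors, keratin-associated proteins, defensins and caseins. It was 8.09 and 8.10 on the log2 scale in the undescribed arrays and 7.28 to 7.64 in the other 18 (median 7.44). Probe sets differ in how brightly they bind their transcript, so each is compared with this level and with itself across arrays, and the levels of different genes are not ranked.

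Smoc1 and Spock2 were above background in all 20 arrays, Fn1 in 19 and Sparc in 18, each with 1 probe set. The other 13 of the 17 probe sets were above it in none, and these include every probe set of Col1a1, Col3a1, Lum, Dcn, Vim and Thy1. Of 20 probe sets of beta cell markers, 17 were above background in every array. In every array 2 of the 17 member probe sets were above background, against 26.9% of all probe sets. None of the 17 was above background in an undescribed array while below it in all of the other 18. Only 23 of all 20380 probe sets were, so few were to be found among 17.

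**Figure D1:**
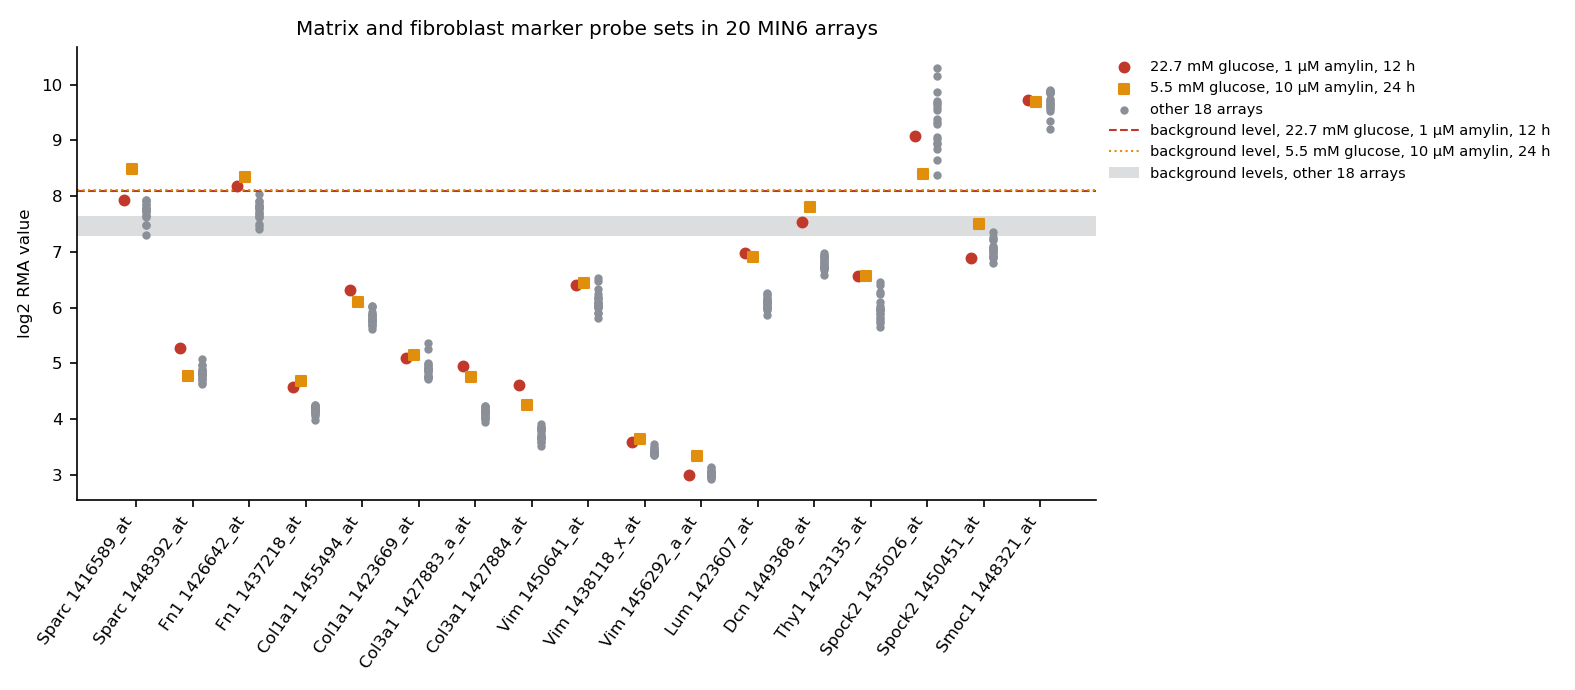
Log2 RMA values (vertical axis) of the 17 marker probe sets (horizontal axis) in each of 20 arrays, with the 2 undescribed arrays as a red circle and an orange square left of the other 18 in grey. Dashed and dotted lines mark the background levels of 8.09 and 8.10 in the undescribed arrays, and the grey band those of 7.28 to 7.64 in the others; only 1 probe set each of Smoc1, Spock2, Fn1 and Sparc lies above the level of its array.

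The sequences upstream of 3 members are shown because these genes span the range seen, from above background in every array (Spock2) or in most (Sparc) to none (Col3a1). They are the 250 bases before the annotated gene start from RefSeq, build GRCm38.p6, given 5′ to 3′ on the gene's strand, and lie at chr10:60106007-60106256 (plus strand) for Spock2, chr11:55420081-55420330 (minus strand) for Sparc and chr1:45311288-45311537 (plus strand) for Col3a1. The table held 4 of the 10 genes. Capitals mark TATAAA, which was searched with CACGTG, the core of an E-box, on both strands.
Spock2: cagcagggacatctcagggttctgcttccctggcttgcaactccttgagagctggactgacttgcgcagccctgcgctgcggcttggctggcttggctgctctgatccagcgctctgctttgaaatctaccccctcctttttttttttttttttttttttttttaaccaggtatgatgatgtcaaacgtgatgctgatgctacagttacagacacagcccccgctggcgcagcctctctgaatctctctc
Sparc: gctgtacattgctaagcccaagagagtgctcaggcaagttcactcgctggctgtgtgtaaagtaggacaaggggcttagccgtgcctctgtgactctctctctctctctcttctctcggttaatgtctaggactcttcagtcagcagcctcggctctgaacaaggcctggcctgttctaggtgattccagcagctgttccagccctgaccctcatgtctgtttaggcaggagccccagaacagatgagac
Col3a1: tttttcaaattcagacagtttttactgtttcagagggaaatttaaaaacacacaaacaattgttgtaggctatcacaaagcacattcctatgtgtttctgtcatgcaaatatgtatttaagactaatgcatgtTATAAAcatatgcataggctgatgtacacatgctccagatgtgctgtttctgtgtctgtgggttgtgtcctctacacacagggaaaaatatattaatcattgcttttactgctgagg
The Spock2 window held 7 CpG dinucleotides, the Sparc window 4 and the Col3a1 window 0, against a median of 6 over the 32851 upstream windows of the same length in the table. Col3a1 had 1 TATAAA, which 12.4% of all windows held. CACGTG, which 6.02% held, was in none of the 3. The G and C content was 51.2%, 54% and 35.2% in the same order.

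Among the SPARC family, Smoc1, a secreted calcium-binding protein of basement membranes, was above background throughout. Its probe set 1448321_at read 9.72 and 9.68 in the undescribed arrays, and 9.20, 9.70 and 9.90 as the lowest, median and highest of the other 18. Spock2, the proteoglycan testican-2, had the largest SD of the members (0.51 over the other 18 arrays). Its probe set 1435026_at read 9.08 and 8.39 in the undescribed arrays and 8.38 to 10.3 (median 9.35) in the other 18, so that both lay below the median of the others. A second Spock2 probe set, 1450451_at, stayed below background in all arrays, at 6.90 and 7.51 against 6.80 to 7.36.

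Sparc, also called osteonectin, binds collagen and calcium and is abundant in fibroblasts and endothelium. Its probe set 1416589_at read 7.93 and 8.48 in the undescribed arrays and 7.30, 7.75 and 7.93 as lowest, median and highest in the others. The second of these arrays was thus the brightest of the 20 for Sparc, while in the first Sparc was level with the highest of the 18 and under the background level of 8.09. The lowest value of the 18, in untreated cells at 5.5 mM, was also under that array's level. The other Sparc probe set, 1448392_at, read 5.27 and 4.77 against 4.63 to 5.08 and was nowhere above background.

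Fn1 encodes fibronectin, the adhesive glycoprotein that links cells to collagen. Its probe set 1426642_at read 8.17 and 8.34 in the undescribed arrays and 7.41, 7.76 and 8.04 as lowest, median and highest of the other 18, without overlap. It was above the array's own level everywhere except in untreated cells at 5.5 mM. The second Fn1 probe set, 1437218_at, was far dimmer, at 4.57 and 4.68 against 3.99 to 4.26. Fn1 and Sparc lay just above the threshold: with the 99th percentile of the genes of other organs as background, both were above it in none of the 20 arrays, and Spock2 in 18 and Smoc1 in 20. The counts were the same with the list of genes of other organs as first written, which included casein kinases.

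**Figure D2:**
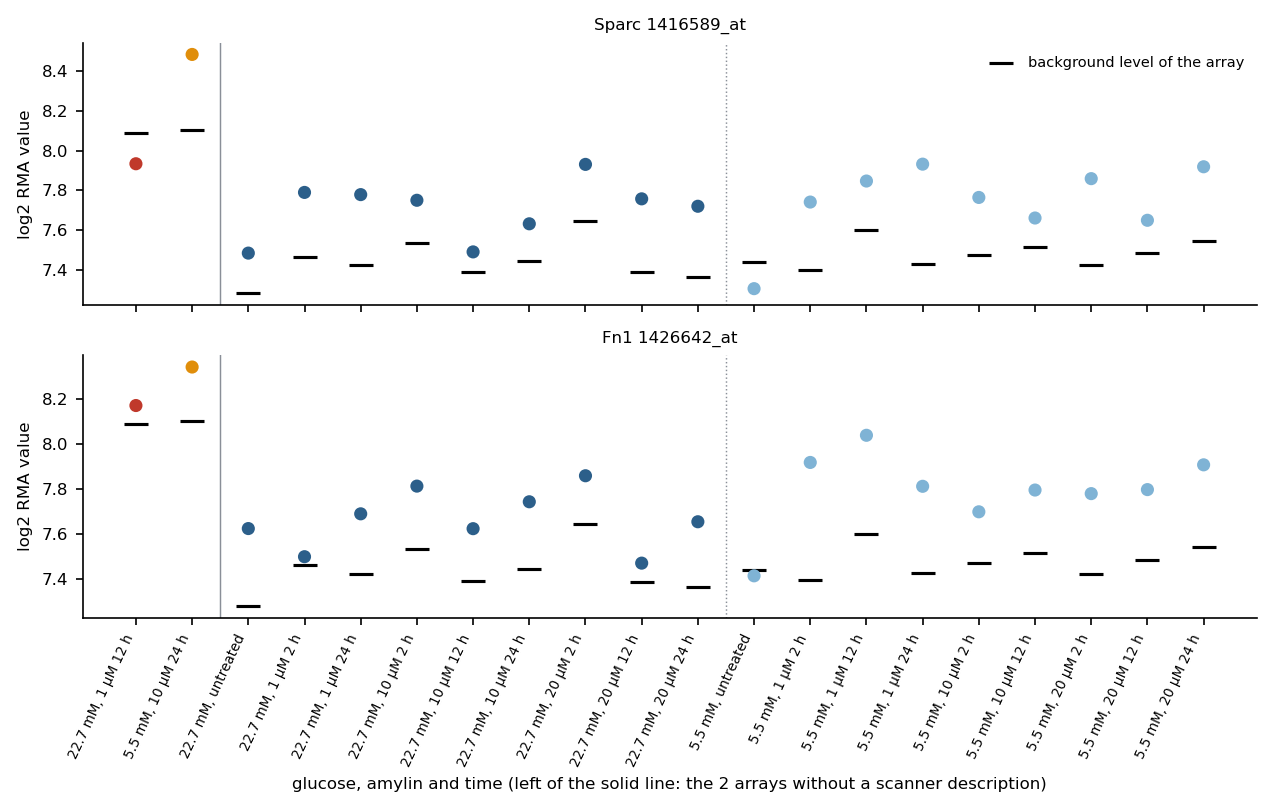
Log2 RMA values of Sparc (top) and Fn1 (bottom) in each of the 20 arrays (points) beside the background level of the same array (black dashes). The 2 undescribed arrays are left of the solid line, then the arrays at 22.7 mM (dark blue) and at 5.5 mM glucose (light blue); Sparc is under the level in 2 arrays and Fn1 in 1.

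Both fibrillar collagens among the members were below background. Col3a1, the collagen type III chain of distensible connective tissue, read 4.95 and 4.75 with probe set 1427883_a_at in the undescribed arrays, against 3.94, 4.12 and 4.24 (lowest, median, highest) in the other 18. Its second probe set, 1427884_at, read 4.61 and 4.26 against 3.51 to 3.92. Both probe sets put the undescribed arrays above all others and both stayed more than 3 log2 units under background. Col1a1, the main chain of type I collagen, read 6.32 and 6.09 against 5.61 to 6.04 with 1455494_at, and 5.10 and 5.15 against 4.72 to 5.37 with 1423669_at, where the groups overlapped.

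Decorin and lumican are small leucine-rich proteoglycans that bind collagen fibrils and set their spacing. Dcn read 7.53 and 7.80 in the undescribed arrays and 6.58, 6.78 and 6.98 as lowest, median and highest of the other 18. Lum read 6.99 and 6.90 against 5.86, 6.09 and 6.25. Neither gene's values overlapped between these groups, and neither gene reached the level of 8.09 and 8.10 in those arrays. Thy1, a surface glycoprotein of fibroblasts, neurons and T cells, read 6.56 in both undescribed arrays against 5.65, 5.97 and 6.46. Vim encodes vimentin, the intermediate filament of mesenchymal cells. Its 3 probe sets read 6.41 and 6.44 against 5.81 to 6.53 (1450641_at), 3.59 and 3.65 against 3.36 to 3.56 (1438118_x_at), and 3.01 and 3.35 against 2.93 to 3.14 (1456292_a_at).

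In all, 10 of the 17 probe sets read above all other 18 arrays in both undescribed arrays, as did 25.4% of all probe sets. Of the probe sets of genes of other organs, 109 of 172 (63.4%) did so too. The median of the 17 probe sets was 6.41 and 6.44 in the undescribed arrays, against 5.75 to 6.09. That of the genes of other organs was 6.11 and 6.16, against 5.49 to 5.74.

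To test this difference, each undescribed array was set against the array of the same amylin condition at the other glucose level, with the glucose effect estimated from all pairs. By limma, with adjustment over all 20380 probe sets, 9 of the 17 member probe sets rose in the undescribed arrays and none fell, where 26.7% of all probe sets rose (5439) and 2445 fell. The share of all calls that were higher was 69.0%, and it was 45.9% after centring each array on its median and 55.5% after a further quantile normalization. Dcn rose by 0.78 (SE 0.14, adjusted p = 0.00059). Col3a1 rose by 0.76 with 1427883_a_at (SE 0.11, adjusted p = 0.00014) and by 0.60 with 1427884_at, and Lum by 0.75 (SE 0.13, adjusted p = 0.00057). Thy1 rose by 0.60 (SE 0.18, adjusted p = 0.0152), the dim Fn1 probe set by 0.53, Sparc 1416589_at by 0.47 (SE 0.16, adjusted p = 0.0249), Col1a1 1455494_at by 0.38 and Vim 1456292_a_at by 0.22. Except for Sparc, these 9 probe sets were below background in all 20 arrays, so the values are differences in signal, and no fold of the transcripts is given.

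The other 8 probe sets did not pass. The brighter Fn1 probe set differed by 0.37 (SE 0.16, adjusted p = 0.0748), Smoc1 by 0.01 (SE 0.13) and Spock2 1435026_at by −0.15 (SE 0.26). Both members that were above background in every array were thus among those without a call. Of 10 classes of level, counted from the dimmest, Spock2 1435026_at lay in class 9 and Smoc1 in class 10. In these classes 2.21% and 1.18% of all probe sets rose. For Sparc the call came from the second undescribed array: without it, or without its match, the difference was 0.10 (adjusted p = 0.777, with 0.00091 as the smallest over all alternatives). The same omission left 4 of the 17 called. Centring each array on its median shifted the median difference of all probe sets from 0.12 to −0.02 and left 5 of 17 called (both Col3a1 probe sets, Lum, Dcn and the dim Fn1 probe set). The further quantile normalization also left 5 (Dcn, Lum, Col3a1 1427883_a_at, Sparc 1416589_at and the brighter Fn1 probe set). Dcn, Lum and Col3a1 1427883_a_at passed in every alternative in which they were tested, and in each fit that left out 1 array.

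The members' differences are read here beside those of probe sets of like brightness, since 13 of the 17 lay in the dimmer 5 of 10 classes of level. From the dimmest to the brightest class of 2038 probe sets each, the median difference in the undescribed arrays was 0.31, 0.38, 0.39, 0.33, 0.25, 0.12, −0.02, −0.11, −0.18 and −0.25. In the dimmest class 47.6% of probe sets rose and in the brightest 1.18%. The members' median was 0.37, that of all probe sets 0.12 and that of the genes of other organs 0.48, of which 122 of 172 (70.9%) rose and 1 fell. Dcn, Col3a1 1427883_a_at and Lum were matched or passed by 17, 20 and 22 of those 172 probe sets, and Sparc 1416589_at by 91. Those 172 are mostly dimmer than Sparc, with a median level of 5.58 against its mean of 7.72 in the other 18 arrays. In the class that held Sparc 1416589_at, class 7 from the dimmest, the median difference was −0.02 and 13.2% rose. In the classes of Dcn and Lum 32.8% and 49.2% rose.

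**Figure D3:**
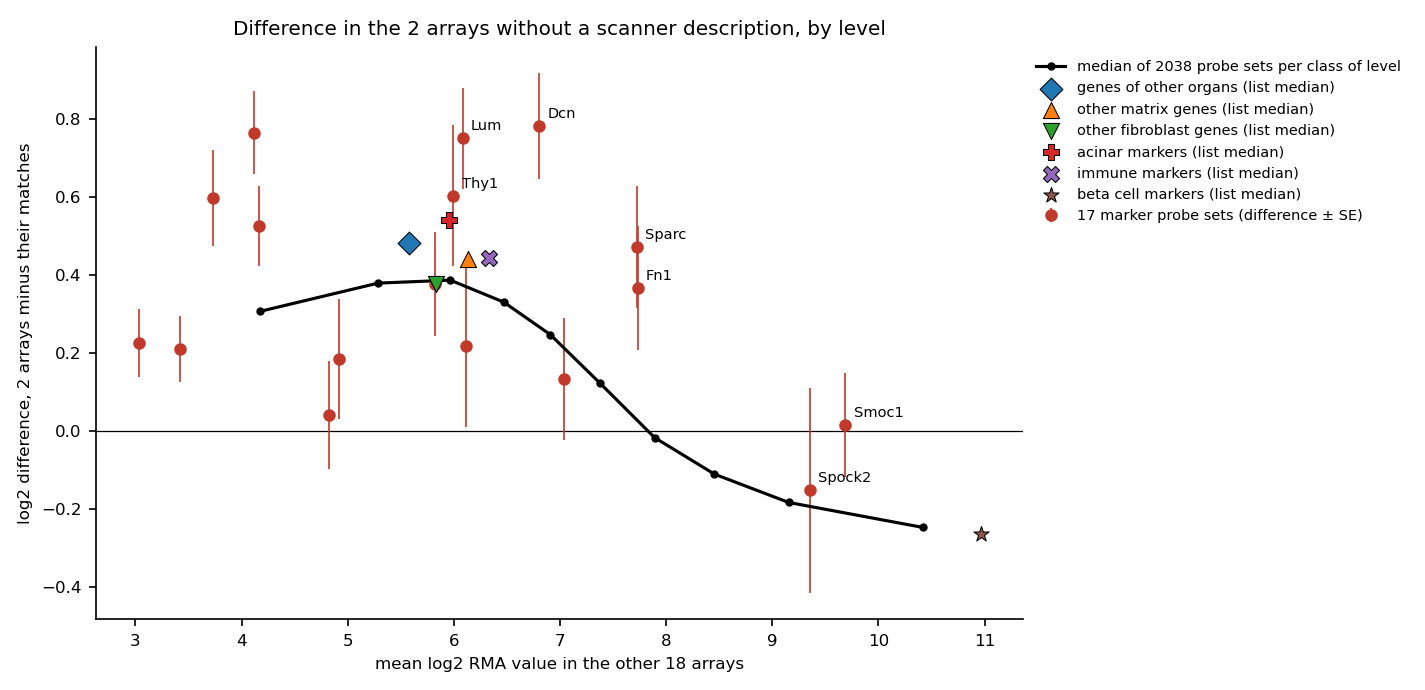
Log2 difference of the undescribed arrays from their matches (vertical axis) against the mean log2 RMA value in the other 18 arrays (horizontal axis) for the 17 marker probe sets (red points, bars are SE). The black line is the median of 2038 probe sets in each of 10 classes of level, from 0.31 at the dim end to −0.25 at the bright end, and the other symbols are list medians, with the genes of other organs at 0.48 and the beta cell markers at −0.26.

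Scales that follow the array's own distribution gave fewer members outside the range of the other 18. By percentile rank within the array, both undescribed arrays exceeded all others for 6 of the 17 probe sets (16.3% of all probe sets). Dcn ranked at 56.2% and 62.9% against 37.6% to 46.2%, and Lum at 42.1% and 39.1% against 24.7% to 30.5%. Relative to the median of the genes of other organs in the same array, both exceeded all others for 2 of the 17. The share of all probe sets was not computed on this scale, so whether 2 of 17 is many or few is not known. The 2 were Dcn, at 1.42 and 1.65 against 1.03 to 1.39, and Lum, at 0.87 and 0.74 against 0.37 to 0.67. Col3a1 1427883_a_at, at −1.16 and −1.41 against −1.64 to −1.33, overlapped on that scale, as did Thy1, at 0.45 and 0.41 against 0.07 to 0.87. Spock2 1435026_at was lower on it in the second undescribed array than in any other, at 2.97 and 2.23 against 2.80 to 4.71.

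**Figure D4:**
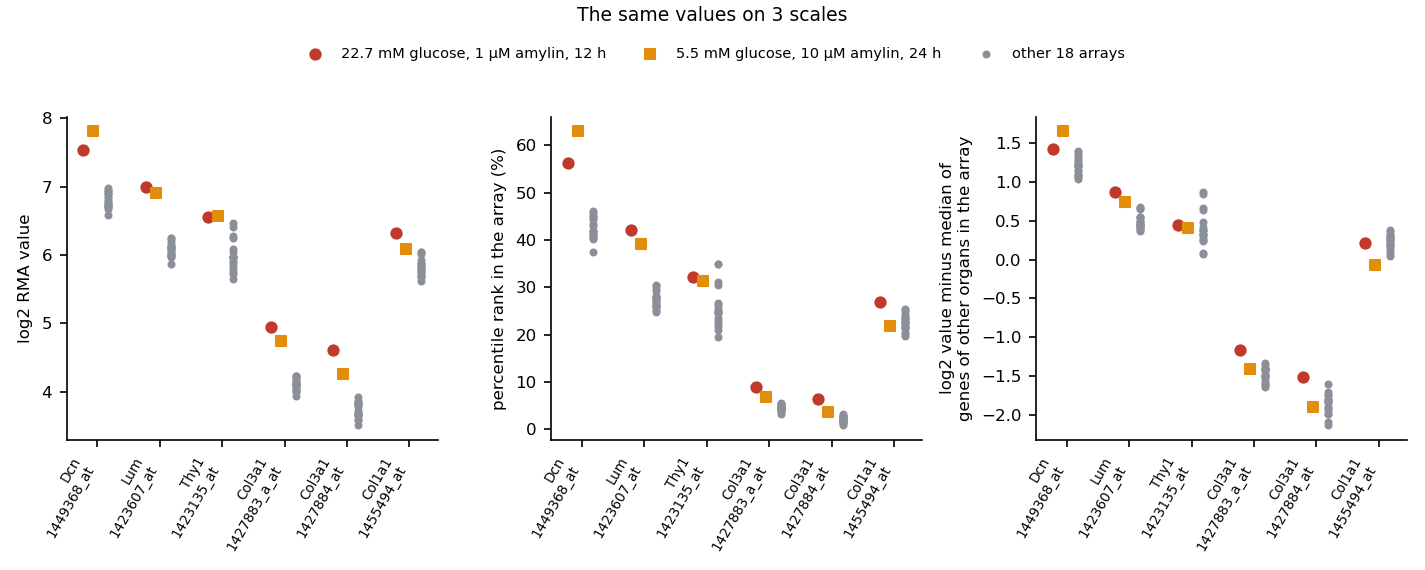
Marker probe sets of Dcn, Lum, Thy1, Col3a1 and Col1a1 (horizontal axes) as log2 RMA values, as percentile ranks in the array and as log2 values minus the median of the genes of other organs in the same array (vertical axes, left to right), with the undescribed arrays in red and orange left of the other 18 in grey. On the third scale both undescribed arrays exceed all others for Dcn and Lum and not for Thy1, Col3a1 or Col1a1.

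Other genes of the same kinds were listed beside the members, and the lists were not tested against each other. For comparison, 26.7% of all probe sets, 49.2% of those in class 3 of level from the dimmest and 70.9% of those of genes of other organs rose. Of 53 probe sets of 31 other fibroblast and mesenchymal genes, 27 (50.9%) rose in the undescribed arrays and 4 fell (median difference 0.38). Des, which encodes desmin, rose by 1.06 with 1426732_at and Prrx1, a mesenchymal transcription factor, by 0.78 with 1425528_at. Des 1426731_at and Prrx1 1432129_a_at, each at 0.27, were not called. Cdh2, N-cadherin, which beta cells also express, fell by 0.94 with 1418815_at and by 0.63 with 1449244_at. Cd44 fell by 0.50 with 1423760_at and Eng by 0.49 with 1417271_a_at. Of 104 probe sets of 52 other matrix genes, 61 rose and 2 fell (median 0.44). Timp3, an inhibitor of matrix proteases, rose by 1.11 with 1419088_at and by 0.46 to 0.77 with its other probe sets. Col5a2, a fibril-forming collagen chain, rose by 1.00 with 1422437_at and by 0.55 with 1450625_at. Bmp1 fell by 1.34 with 1427457_a_at but rose by 0.51 with 1427458_at, and Plod2 fell by 0.56 with 1416687_at. Among 8 probe sets of 5 further SPARC family genes 4 rose and none fell, Smoc2 by 1.13 with 1415935_at and by 0.40 with 1431362_a_at.

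Of markers of other cell types, 11 of 14 acinar probe sets rose (median 0.54), 8 of 13 immune (0.44), 6 of 12 endothelial (0.41), 3 of 12 duct (0.20) and 1 of 5 islet hormone probe sets (0.19), against 26.7% of all probe sets. In the endothelial list 1 probe set fell. Of 20 beta cell probe sets 1 rose and 8 fell (median −0.26). None of the probe sets of the acinar, immune, endothelial, matrix or fibroblast lists was above background in an undescribed array and below it in all of the other 18, and 23 of all probe sets were. Of genes that fibroblasts are known for, Col1a1, Col3a1, Dcn and Lum were under background in all arrays. Col1a2, the second chain of type I collagen, named here after its values were seen, was above it in 19 arrays with 1450857_a_at and in none with 1423110_at. It rose in the undescribed arrays with both, by 0.55 and 0.47. What part the array-wide shift in brightness had in the members' differences was not tested.

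Of the 104 probe sets of the matrix list, 11 probe sets of 8 genes were above background in every array. So were 26.9% of all probe sets and 4 of the 172 of genes of other organs. The genes were Bmp1, a procollagen-processing protease, Col6a3, Col5a2 and Col4a1 of the collagens, Hspg2 (perlecan) and Lama5 of basement membranes, the small leucine-rich proteoglycan Prelp, and Timp2, an inhibitor of matrix proteases. The fibroblast list had 5 such probe sets, those of Cdh2, Meox2, Serpinf1, Tpm2 and Nt5e, and the SPARC family list had none.

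High and low glucose were compared over 10 matched conditions. Of the 17 probe sets, Spock2 1435026_at alone was called, and it rose at 22.7 mM, as did 1.84% of all probe sets. It read 8.93 to 10.3 at 22.7 mM and 8.38 to 9.66 at 5.5 mM, so the groups overlapped, but it was higher at 22.7 mM in 10 of 10 pairs. The means were 9.57 ± 0.45 at 22.7 mM and 9.01 ± 0.47 at 5.5 mM (SD over 10 conditions), a rise of 0.56 (SE 0.12, limma adjusted p = 0.0159) or 1.47-fold. The pair differences ran from 0.06 in untreated cells to 1.66 at 20 µM for 12 h, where Spock2 read 10.3 at 22.7 mM and 8.64 at 5.5 mM. The second Spock2 probe set differed by −0.07 (SE 0.08).

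**Figure D5:**
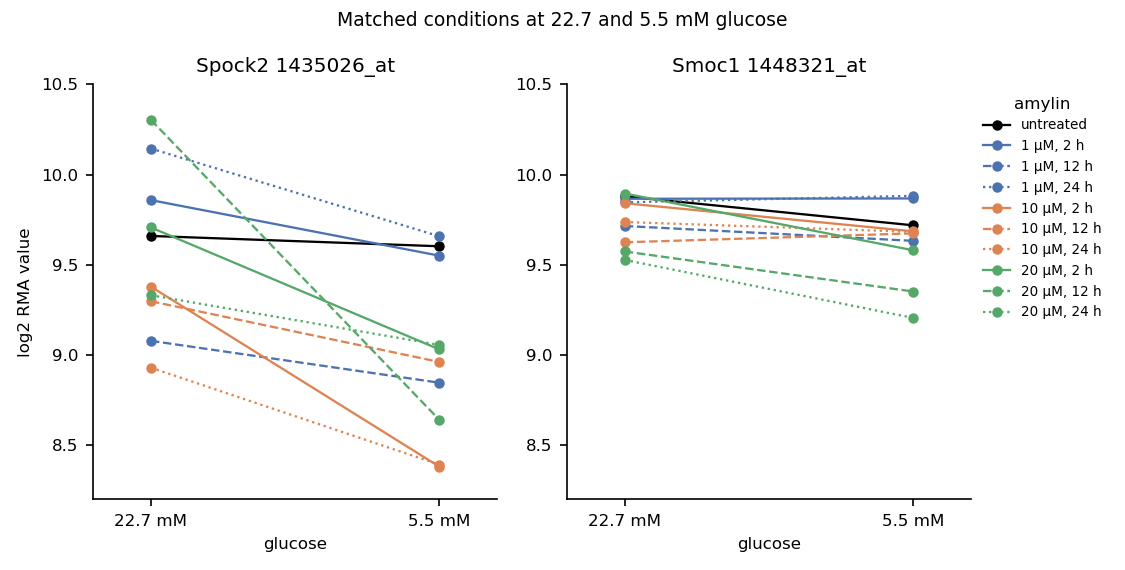
Log2 RMA values (vertical axes) of Spock2 (left) and Smoc1 (right) in 10 amylin conditions, each a line from 22.7 mM to 5.5 mM glucose (horizontal axes), coloured by dose and dashed by time. Spock2 is higher at 22.7 mM in 10 of 10 pairs and Smoc1 in 7 of 10.

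Spock2's glucose difference was 0.31, 0.88 and 0.45 within scan days 2, 3 and 4, and 0.55 and 0.58 within the 2 fluidics protocols. These are differences of means over unlike amylin conditions, without the pairing. The scan days held 1, 4 and 4 arrays at 22.7 mM and 3, 3 and 2 at 5.5 mM. The protocols held 4 and 5 at 22.7 mM and 7 and 2 at 5.5 mM, so protocol was not balanced over glucose. Scan day 1 held 1 array. Without either array of 10 µM and 2 h the adjusted p was 0.0534, and over all alternatives it ranged from 0.0033 to 0.732. The actin signal difference moved with glucose, at 1.83 ± 0.43 at 22.7 mM and 1.22 ± 0.24 at 5.5 mM (SD, 10 arrays each), higher at 22.7 mM in 10 of 10 pairs. With it as a covariate Spock2 differed by 0.38 (SE 0.21, adjusted p = 0.732), and no probe set of the 20380 was called, with 1519 at an unadjusted p under 0.05.

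Thy1 differed by 0.27 between the glucose levels (SE 0.11, limma adjusted p = 0.209), with means of 6.19 ± 0.24 at 22.7 mM and 5.92 ± 0.26 at 5.5 mM, and was higher in 8 of 10 pairs. Without the undescribed arrays its difference was 0.34 (adjusted p = 0.0167, and 0.0117 to 0.939 over all alternatives). It was below background in all 20 arrays. Smoc1 differed by 0.12 (SE 0.06, adjusted p = 0.321), Fn1 1426642_at by −0.14 (SE 0.09) and Sparc 1416589_at by −0.09 (SE 0.09). The 17 differences ran from −0.14 to 0.56 with a median of −0.0042, and the median of all probe sets was 0.0046. Of the matrix list, P4ha1, a prolyl hydroxylase subunit needed for collagen folding, fell by 0.55 at 22.7 mM with 1426519_at, and Col18a1 fell by 0.28 with 1418237_s_at. Of all 20380 probe sets 712 fell. Neither of these P4ha1 and Col18a1 probe sets was above background in any array. The brighter P4ha1 probe set differed by 0.08 and the brighter Col18a1 probe set, 1426955_at, by −0.23 (SE 0.07, limma adjusted p = 0.0517). Each of these was above background in 17 arrays.

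With amylin none of the 17 probe sets was called, nor was any probe set (0% by limma, 960 of 20380 at an unadjusted p under 0.05). Sparc 1416589_at read 7.49 to 7.93 in treated cells at 22.7 mM, against 7.48 in untreated cells, and 7.65 to 8.48 in treated cells at 5.5 mM, against 7.30 in untreated cells. The untreated array was thus the lowest of its glucose level for Sparc in both cases. The mean over 18 treated arrays was 7.81 and over 2 untreated arrays 7.39, a difference of 0.42 (SE 0.15, adjusted p = 0.822). Fn1 1426642_at differed by 0.29 (SE 0.14) and Spock2 1435026_at by −0.38 (SE 0.21). The 17 differences had a median of 0.11 against 0.02 for all probe sets, and 14 were positive. Both undescribed arrays are treated, and without them the median was 0.067 and 11 were positive. With 1 untreated array at each glucose level, the untreated cells' own spread is poorly known.

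Dose and time left no call among the members. At 20 against 1 µM, where limma called 0% of all probe sets (406 at an unadjusted p under 0.05), Smoc1 averaged 9.52 at 20 µM and 9.80 at 1 µM, a difference of −0.28 (SE 0.08, adjusted p = 0.999), lower in 5 of 6 pairs. Smoc1's lowest value within each glucose level was that at 20 µM for 24 h, 9.53 at 22.7 mM and 9.20 at 5.5 mM. At 10 against 1 µM, again with 0% called (375 at an unadjusted p under 0.05), Spock2 1435026_at averaged 8.89 at 10 µM and 9.52 at 1 µM, a difference of −0.63 (SE 0.16), and no probe set had an adjusted p under 0.99. These comparisons share the 1 µM arrays. The undescribed arrays were given 1 and 10 µM, and none of the 20 µM arrays is undescribed. Without them the members' median difference at 20 against 1 µM went from −0.107 to −0.025.

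At 24 against 2 h, with 0.0147% of all probe sets called, the members' differences ran from −0.14 to 0.22, and at 12 against 2 h, with 0.0491% called, from −0.22 to 0.20. The undescribed arrays are at 12 and 24 h, and none is at 2 h. Without them the members' median went from 0.089 to −0.010 at 24 against 2 h. At 12 against 2 h it went from 0.055 to −0.037. Smoc1 was lower at 12 than at 2 h in 6 of 6 pairs, by 0.19 on average (SE 0.08), without passing (adjusted p = 0.757). The smallest adjusted p of a member was 0.909 for 24 against 2 h. Differences between the glucose levels in the effects of amylin, of 24 against 2 h and of 20 against 1 µM were tested as interactions, and no member passed (smallest adjusted p = 0.435).

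Across the 20 arrays the values of Sparc 1416589_at and Fn1 1426642_at had a Pearson r of 0.77, and across the 18 arrays other than the undescribed ones of 0.59. Among probe sets above the median level, those most like Sparc over 20 arrays were Parvg, Ksr1, H2-T3, Prph and Prss44 (r of 0.88 to 0.91), and over 18 arrays Kcnq1, Parvg, Prph, Prss44 and Aym1 (0.79 to 0.83). Those most like Fn1 over 20 arrays were Dele1, Fcgr4, Ptprk, Cetn1 and Olfr66 (0.86 to 0.88), the last of them a gene of other organs, and over 18 arrays Cetn1, Fcgr4, Rabif, Cenpn and Dele1 (0.74 to 0.79). These arrays share scaling and overall brightness, so the coefficients describe the arrays and are given without a test.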

How the data were processed

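Total RNA of MIN6 cells was hybridised to 20 Affymetrix arrays. The deposited table holds log2 values that the authors made with RMA in affy 1.12.2 under R 2.4.0, per the submitters' processing notes. Whether RMA was run once over all of them is not given in the sources used here. Scanner descriptions of 18 arrays, per the file headers, gave scan day, fluidics protocol and chip lot (1 lot), coded here as numbers. No column of other samples was present.

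Of 22690 probe sets, 64 controls, 691 listed with several genes and 1555 with none were left out. No filter on low values was applied to the other 20380. A filter on the lowest 40% would have kept 6 of the 17 member probe sets.

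limma 3.58.1 in R 4.3.3 (lmFit and eBayes, trend on) gave the differences, with a factor for the 10 amylin conditions and a glucose term (9 residual degrees of freedom), plus a term for the 2 arrays without a scanner description in their contrast (8 degrees of freedom). P-values were adjusted over all 20380 probe sets by the Benjamini-Hochberg method at 0.05. The script was tested on simulated data. Tables used Python with pandas.

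The members, gene lists and tests were chosen with earlier results of these data known. The pattern for genes of other organs first also took 25 probe sets of casein kinases, which are expressed in most cells. They were removed after the values were seen, and the first version is kept as an alternative. All member probe sets are named. Of other lists the text names up to 4 genes with the smallest p in the contrast of the 2 arrays or the highest level. Genes called for glucose, Col1a2 and the full names of genes above background in every array were added after values were seen. So were Slc2a2, further probe sets of named genes, and the genes that fell in the fibroblast and matrix lists. It also names the 5 probe sets most like Sparc and Fn1 by Pearson r, and the 5 highest and 5 lowest other genes in the contrast of the 2 arrays. Alternatives were a filter on low values, 1 probe set per gene, median centring, quantile normalization, other eBayes settings, an additive model, the actin signal difference as covariate, blocks for scan day and fluidics protocol, the 2 arrays left out, each array left out in turn, and other background levels.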

Additional observations from a re-analysis of the deposited data

Results flagged for a closer look

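Within the 10 arrays of each glucose level, 14 member values lay far from the nearest other array relative to the range, and all 14 were the highest value and came from the arrays without a scanner description. For a single group of 10 alike arrays the chance of such a value is about 1 in 20, and 34 groups were examined. All groups share the same arrays, so this rate cannot be set against the count of 14. The share over all probe sets was not computed. Of the probe sets of genes of other organs, 109 of 172 read above all other 18 arrays in both undescribed arrays. In the array of 22.7 mM glucose, 1 µM amylin and 12 h, these were Fn1 1437218_at at 4.57, Col3a1 at 4.95 (1427883_a_at) and 4.61 (1427884_at), Lum at 6.99 and Dcn at 7.53. In the array of 5.5 mM glucose, 10 µM amylin and 24 h, they were Sparc 1416589_at at 8.48, Fn1 1437218_at at 4.68, Col3a1 at 4.75 and 4.26, Vim at 3.65 (1438118_x_at) and 3.35 (1456292_a_at), Lum at 6.90, Dcn at 7.80 and Thy1 at 6.56. The Sparc value alone was above its array's background level.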

How the results depend on the processing

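For glucose, 1 of 17 member probe sets was called, 0 with the actin signal as a covariate, 2 with scan day as a block, 2 without the 2 undescribed arrays, 2 with fluidics protocol as a block, and 0 to 2 when each array was left out. The second call was Thy1, and its difference with the actin covariate was −0.071. Over all probe sets glucose gave 1088 calls, against 0, 2235, 1979 and 1938 in these settings, 296 with 1 probe set per gene and 472 to 1688 leaving out arrays. For the undescribed arrays, 9 of 17 were called, 2 of 6 with the 40% filter, 5 with median centring and 5 with quantile normalization. The additive model called 10 of 17, and leaving out each array 4 to 9. Over all probe sets 7884 were called, 3500 with the filter, 4976 with 1 probe set per gene, 11404 with the additive model and 2130 to 8114 leaving out arrays. Differences without a call that changed sign were those of Sparc 1448392_at (−0.10 with centring, −0.26 with quantile normalization, −0.31 to 0.39 leaving out arrays), Spock2 1450451_at (−0.0082 with centring, −0.0086 with quantile normalization), Smoc1 (−0.13 with centring, −0.053 to 0.081 leaving out arrays), Col1a1 1423669_at (−0.11 with quantile normalization), Vim 1450641_at (−0.044 with quantile normalization) and Spock2 1435026_at (−0.368 to 0.063 leaving out arrays). The causes were not tested. Of the 17 probe sets, 4 were above background in at least 1 array, 2 with the 99th percentile, 2 with the list as first written and 7 with the 40th percentile of all probe sets. For amylin, time and dose no member was called in any alternative run, while calls over all probe sets ran from 5 to 38 for 12 minus 2 h (10 as reported) and from 0 to 7 for 24 minus 2 h (3 as reported). Leaving out arrays gave 0 to 17 calls for 12 minus 2 h and 0 to 298 for 24 minus 2 h, the 298 without the array of 22.7 mM, 10 µM and 24 h. Scan day as a block could not be fitted for amylin, 12 minus 2 h and the doses. The signal of 13 of the 17 probe sets was never above background, so their differences describe probe signal and give no fold of a transcript.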

Other observations

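Genes outside the marker lists showed larger differences in the undescribed arrays. The highest were Lor (loricrin of the skin barrier, a gene of other organs here), which read 9.02 and 9.10 against 7.40 to 7.89 in the other 18 and rose by 1.42, and Klrg1 (1.30), Creb1 (1.25), Ceacam11 (1.25) and Smo (1.23). The lowest were Malat1, a nuclear long noncoding RNA, which read 3.72 and 3.66 against 4.54 to 7.08 and fell by 2.71, and Phip (−2.52), Syt4 (−2.32), Oxct1 (−2.30) and Rbm39 (−2.27).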
